A study of Mus musculus with 26 samples.

Results

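BAF complexes are chromatin remodellers that use ATP to move or evict nucleosomes. Each is built around 1 ATPase, and many of its other positions can be filled by alternative subunits from related genes. In embryonic stem cells (ESCs) the complex is known to hold the ATPase BRG1 (Smarca4), the scaffold BAF155 (Smarcc1), ARID1A, the actin-related BAF53A (Actl6a) and PHD-finger proteins such as DPF2 and PHF10. Neural progenitors are known to add BAF170 (Smarcc2) and the ATPase BRM (Smarca2), and neurons exchange ACTL6A for BAF53B (Actl6b) and PHF10 or DPF2 for DPF1. The 10 genes for these subunits were taken by symbol, of 52535 genes named in the count files, and all 10 were found. Their loops were those with an anchor within 2500 bases of the gene in mm10.

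The series used mouse E14 ESCs with the genotypes WT and Klf4-KO, grown on gelatin in serum with LIF, PD0325901 (a MEK inhibitor) and CHIR99021 (a GSK3 inhibitor). Of its 26 samples, 8 are used here, all labelled NPC (neural progenitor cells) after 12 days of neural induction. RNA-seq had 2 libraries per genotype. RNA polymerase II HiChIP, which maps contacts between sites bound by the polymerase, had 2 samples per genotype but 1 loop list each, with no replicate named. Whether the knockout cells were 1 clone is not given in the sources used here, and the series text calls the replicates biological.

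Klf4, the targeted gene, went against the labels: its counts were 0 and 0 under the WT label and 2571 and 2538 under the KO label. All libraries are therefore named by label, and every direction is KO-labelled against WT-labelled. No such check was made of the labels of the loop lists. Gene counts totalled 29835774 to 37703866 per library. Of 17273 genes tested, 73.1% were called different at a Benjamini-Hochberg adjusted p below 0.05 (edgeR quasi-likelihood test), 37.2% higher and 35.8% lower, and in 86.3% the groups did not overlap. Of the called genes 50.9% were higher, or 62.0% with library size alone as the scale.

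The labelled cell type was checked against marker lists. All 12 pluripotency markers stood at 20 CPM (read counts scaled to a common library size, with TMM factors) or more in every library, and their summed level was 9175 and 9190.0 CPM under the WT label and 4838 and 4936 CPM under the KO label (1 higher, 11 lower). The 12 neural progenitor markers summed to 170.0 and 161 CPM against 386 and 400.4 CPM, with Fabp7 and Hes5 at 0 counts under the WT label, and all 11 tested were higher. The 14 neuron markers summed to 575 and 554 CPM against 273 and 268 CPM, but the sum and the genes went different ways. Of 13 tested, 8 were higher and 4 lower with a median log2 fold change of 1.44, and the sum followed the abundant Stmn2 (356 to 165 CPM) and Tubb3 (141 to 21.3 CPM). Dcx had 0 counts except for 5 in KO-labelled replicate 2. The 12 mesoderm and fibroblast markers summed to 13.7 and 12.9 CPM against 462 and 449 CPM, and the 10 endoderm markers to 4.59 and 4.08 CPM against 49.2 and 49.5 CPM. Of these, 11 of 11 and 7 of 8 tested were higher. The part of these shifts in the subunit values below was not tested. In bulk RNA, fewer cells of a type and less RNA per cell cannot be told apart.

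The subunit pairs shifted unequally. Smarca2, Smarcc2, Phf10 and Arid1a were higher in the KO-labelled libraries, Dpf1, Actl6a and Dpf2 were lower, and Smarca4 and Smarcc1 were not called. Actl6b had too few counts to be tested. Of the 9 tested, 4 were higher and 3 lower, shares near those over all genes. With upper-quartile factors or library size alone, 6 were higher and 3 lower, because Smarca4 and Smarcc1 were then called. The median log2 fold change of the 9 was 0.038, beside 0.026 over all genes tested. Among the 9, only Smarca2 and Dpf1 changed by at least 2-fold, and 63.7% of all genes tested changed by less than that.

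**Figure D1:**
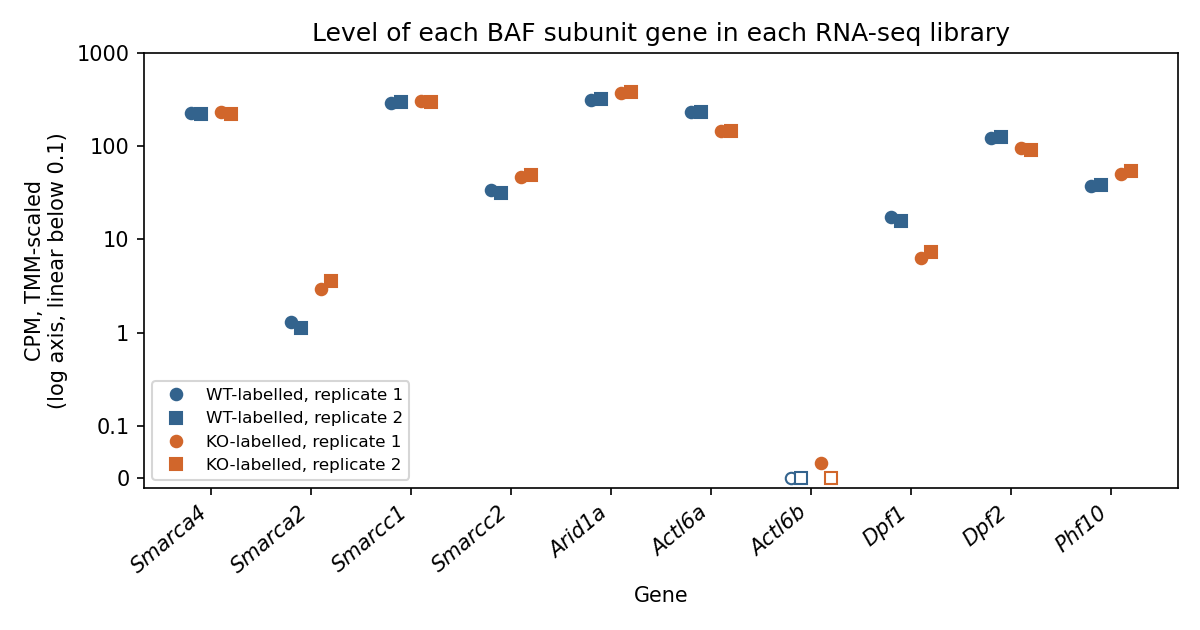
CPM of each subunit gene (y axis, log scale, linear below 0.1) in each of the 4 RNA-seq libraries (blue WT-labelled, orange KO-labelled; open symbols are 0 counts). Actl6b sits at or next to 0 in all libraries, whereas Actl6a, Dpf2 and Dpf1 sit lower and Smarca2, Smarcc2, Arid1a and Phf10 higher in both KO-labelled libraries.

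The ATPase genes are Smarca4 (chr9:21616106-21704230, plus strand) and Smarca2 (chr19:26605073-26778321, plus strand), in RefSeq GRCm38.p6, the assembly of mm10, as are all gene positions here. Smarca4, whose protein is the ATPase of the stem-cell complex, stood at 229 and 224 CPM under the WT label and at 235 and 224 CPM under the KO label. The groups overlapped. Its fold was 1.01 with a 95% interval of 0.964 to 1.06 (edgeR adjusted p = 0.675), and 98.8% of the genes tested had a larger change. With upper-quartile factors its log2 fold change was 0.10 (edgeR adjusted p = 0.0103) and with library size alone 0.23 (edgeR adjusted p = 1.41e-06). Those scalings moved the median of all genes to 0.11 and 0.24, and the value for Smarca4 lay close to that median under each. Smarca2, the alternative ATPase, had 46 and 31 counts, or 1.31 and 1.12 CPM, under the WT label, and 102 and 127 counts, or 2.98 and 3.54 CPM, under the KO label. Both KO-labelled libraries lay above both WT-labelled ones. It rose by a log2 fold change of 1.41 ± 0.32 (SE), a fold of 2.67 (edgeR adjusted p = 0.000300). Its span overlaps 3 annotated lncRNA genes (Gm52395, Gm20616 and 4931403E22Rik). The count files set aside 4.19% to 4.41% of each library as ambiguous. With no strand setting given, how reads in these overlaps were assigned is not known. Smarca2 made up 0.569% and 0.497% of the ATPase pair's counts under the WT label and 1.25% and 1.56% under the KO label.

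The promoter window of Smarca2 (250 bases before to 50 after the annotated start, chr19:26604910-26605209, plus strand) is shown because a polymerase II anchor covered it in the KO-labelled list only. Capitals mark CCGCCC, the GC box, and CACCC, the core of sites bound by KLF proteins, on either strand (GGGCGG and GGGTG).
Smarca2: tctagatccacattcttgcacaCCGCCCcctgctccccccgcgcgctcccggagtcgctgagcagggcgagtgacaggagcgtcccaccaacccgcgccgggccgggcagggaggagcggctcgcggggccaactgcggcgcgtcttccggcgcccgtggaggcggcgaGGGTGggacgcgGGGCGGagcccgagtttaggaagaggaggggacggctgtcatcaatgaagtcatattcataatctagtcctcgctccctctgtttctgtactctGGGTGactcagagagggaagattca
It held 2 copies of each motif, with no base in both. Of 32851 promoter windows in the RefSeq table, 35.7% held CCGCCC and 57.5% CACCC. Of the 10 genes, 9 held the first and 7 the second in a window, so the letters were common in these windows.

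The scaffold genes are Smarcc1 (chr9:110132024-110240178, plus strand) and Smarcc2 (chr10:128459182-128490591, plus strand). Smarcc1, which encodes BAF155, stood at 294 and 299.8 CPM under the WT label and at 309 and 301 CPM under the KO label. The groups were apart by little, and the fold of 1.03 had an interval of 0.984 to 1.07 (edgeR adjusted p = 0.254). Like Smarca4, it was called with upper-quartile factors (log2 fold change 0.12, edgeR adjusted p = 0.000985) and with library size alone (0.25, edgeR adjusted p = 4.60e-08). Smarcc2, which encodes BAF170, had 34.1 and 31.8 CPM against 46.7 and 49.3 CPM. Its groups did not overlap, and it rose by 0.54 ± 0.070 (log2, SE), a fold of 1.45 (edgeR adjusted p = 1.96e-07). Its share of the pair's counts was 10.4% and 9.60% under the WT label and 13.2% and 14.1% under the KO label.

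ARID1A is the large subunit that defines the canonical BAF form. Arid1a (chr4:133679008-133756769, minus strand) stood at 316 and 319 CPM under the WT label and at 376 and 379.7 CPM under the KO label. The spread within a group was small (SD 2.16 and 2.47 CPM, n = 2), and the groups were apart. The rise of 0.25 ± 0.028 (log2, SE; edgeR adjusted p = 1.93e-08) was nevertheless a fold of only 1.19, and 80.3% of genes tested had a larger change.

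Of the actin-related pair, Actl6a fell and Actl6b was at the detection limit. Actl6a (chr3:32708546-32726973, plus strand), the form of dividing cells, had 233 and 232 CPM under the WT label and 147 and 147 CPM under the KO label. The libraries of each label nearly coincided. It fell by 0.66 ± 0.034 on the log2 scale, to 0.632 of its WT-labelled level (edgeR adjusted p = 4.62e-15). Actl6b (chr5:137553361-137569582, plus strand), the neuronal form, had 0 and 0 counts under the WT label and 1 and 0 under the KO label. At this depth 3 counts would be 0.0837 to 0.108 CPM per library, so Actl6b was at or below that limit in all 4. No fold and no ratio to Actl6a is given for it. The fall of Actl6a therefore had no detectable rise of Actl6b beside it.

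The windows at the starts of this pair (chr3:32708296-32708595 for Actl6a and chr5:137553296-137553595 for Actl6b, both plus strand) are shown because the first lay in a polymerase II anchor in both loop lists and the second in none. Capitals mark the same motifs as before.
Actl6a: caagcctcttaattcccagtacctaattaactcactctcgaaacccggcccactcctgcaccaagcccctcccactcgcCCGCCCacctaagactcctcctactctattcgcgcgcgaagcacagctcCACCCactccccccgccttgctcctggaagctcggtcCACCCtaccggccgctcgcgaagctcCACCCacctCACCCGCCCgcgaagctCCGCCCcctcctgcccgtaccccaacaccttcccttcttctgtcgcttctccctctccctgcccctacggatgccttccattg
Actl6b: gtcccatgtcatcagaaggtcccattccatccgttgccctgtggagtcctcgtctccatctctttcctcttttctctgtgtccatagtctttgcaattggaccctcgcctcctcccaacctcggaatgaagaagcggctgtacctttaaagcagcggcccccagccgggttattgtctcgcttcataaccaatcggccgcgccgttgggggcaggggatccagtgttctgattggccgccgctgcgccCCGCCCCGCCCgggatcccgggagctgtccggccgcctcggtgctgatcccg
The Actl6a window held 4 copies of CACCC and 3 of CCGCCC, with 2 bases shared between motifs, and the Actl6b window held 0 and 2. CpG dinucleotides numbered 21 in the Actl6a window and 23 in the Actl6b window, against a median of 7 over all windows. These counts were above those of 75.2% and 78.5% of windows. TTCAGCACC, the left part of the site bound by the repressor REST, on either strand, was in none of the 10 genes' windows and in 0.371% of all windows.

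In neurons, Actl6a is known to be repressed by miR-9* and miR-124, whose genes are themselves REST targets. The mature miR-9* (mmu-miR-9-3p, RefSeq) is shown with its seed, bases 2 to 8, in capitals.
mmu-miR-9-3p: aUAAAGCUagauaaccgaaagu
Mature microRNAs were not measured, but host transcripts were counted. In a list of 10 genes for REST partners, host transcripts and splicing regulators, 5 were higher and 5 lower, beside 37.2% and 35.8% of all genes tested. The 5 lower calls held under every alternative run. The higher calls fell to 3 with DESeq2, with no filter, without WT-labelled replicate 1 and without KO-labelled replicate 1, and to 2 (Rcor1 and Ptbp2) without KO-labelled replicate 2. The calls lost were of Rcor3, Mir124a-1hg and Mir124-2hg. The list's median log2 fold change was 0.025. Mir9-3hg had 231 and 144 counts under the WT label and 84 and 90 under the KO label and fell by 1.25 ± 0.23 (log2, SE; edgeR adjusted p = 3.23e-05). Mir124-2hg had 1 and 8 counts against 18 and 22 and was called higher (1.91 ± 0.81, edgeR adjusted p = 0.0384). That call was lost with DESeq2 (adjusted p = 0.108), with no filter and when WT-labelled replicate 1 or either KO-labelled library was left out. Rcor2, a REST corepressor, fell by 0.99 ± 0.034 and Ptbp2, the neural polypyrimidine-tract binding protein, rose by 1.41 ± 0.065 (edgeR adjusted p = 1.54e-18 and 8.63e-16). Rest itself, named outside the naming rule, stood at 291 CPM under the WT label and 230.1 CPM under the KO label and fell by 0.34 ± 0.031 (edgeR adjusted p = 3.76e-10).

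PHF10, DPF1 and DPF2 carry tandem PHD fingers, which read histone tails, and fill 1 position of the complex. Phf10 (chr17:14944994-14961260, minus strand), the progenitor and stem-cell form found in PBAF, had 37.7 and 38.4 CPM under the WT label and 50.6 and 53.8 CPM under the KO label. It rose by 0.46 ± 0.066 (log2, SE; edgeR adjusted p = 9.73e-07). Its annotated span overlaps 1600012H06Rik, and with no strand setting given, how reads in the overlap were assigned is not known. Dpf2 (chr19:5896516-5912871, minus strand), the ubiquitous form, had 123 and 125 CPM against 95.6 and 90.2 CPM and fell by 0.42 ± 0.044 (edgeR adjusted p = 5.31e-09). Dpf1 (chr7:29303952-29317592, plus strand), the neuronal form, had 17.5 and 15.7 CPM against 6.36 and 7.36 CPM. Groups did not overlap for any of these 3 genes. Dpf1 fell by 1.28 ± 0.13 on the log2 scale, to 0.413 of its WT-labelled level (edgeR adjusted p = 5.59e-09). Its share of the Dpf2 and Dpf1 counts was 12.4% and 11.2% under the WT label and 6.24% and 7.55% under the KO label. Dpf1, a gene of the neuronal complex, was thus lower where Smarca2 and Smarcc2 were higher.

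Ratios and shares within a library do not depend on library size, but they are not corrected for transcript length. The log2 ratio of Smarca4 to Smarca2 averaged 7.53 ± 0.13 (SD, n = 2) under the WT label and 6.14 ± 0.23 under the KO label, a ratio 2.63-fold lower in the latter. The ratio of Smarcc1 to Smarcc2 was 1.42-fold lower (log2 means 3.17 ± 0.090 and 2.67 ± 0.079). The ratio of Dpf2 to Dpf1 went the other way and was 1.81-fold higher (2.90 ± 0.13 and 3.76 ± 0.21). In each of the 3 pairs the 2 libraries of one label lay on the same side of the 2 of the other. The exact permutation test, two-sided, gave p = 0.333 for each ratio, which is the smallest p that 2 against 2 libraries allow.

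**Figure D2:**
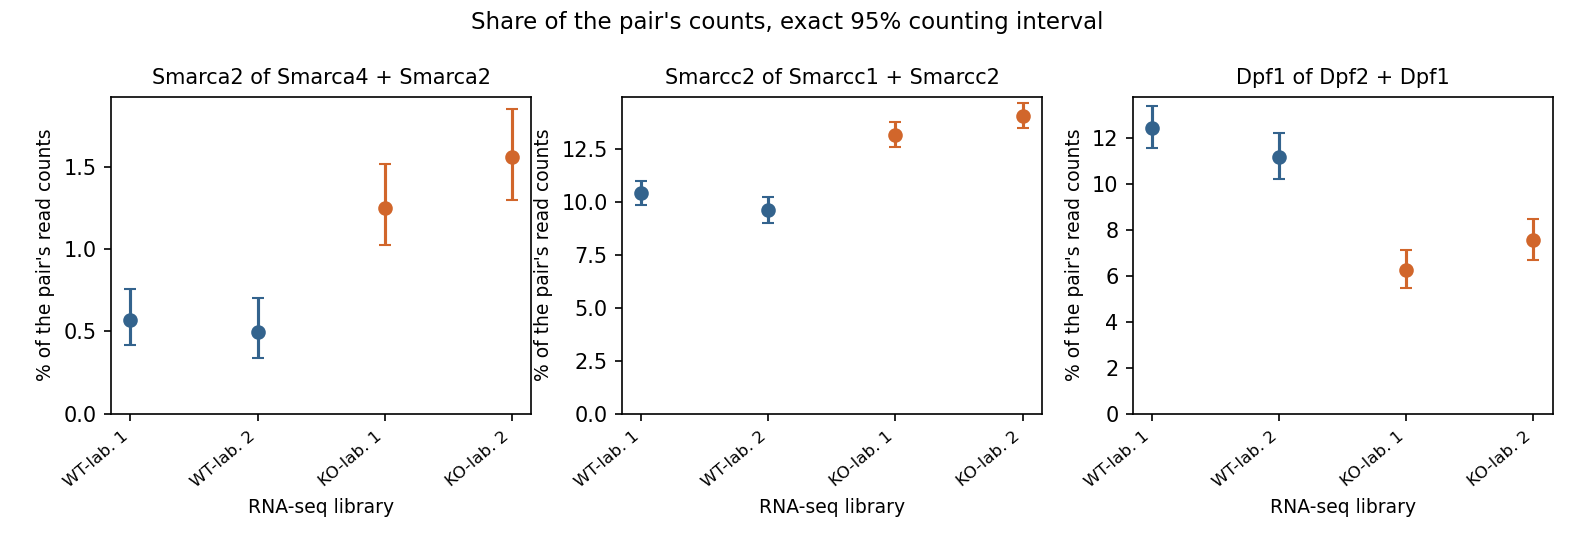
Share of the alternative subunit in its pair's read counts (y axis, percent, from 0) in each RNA-seq library, with exact 95% binomial intervals that cover counting error only. Smarca2 and Smarcc2 take larger shares in the KO-labelled libraries, up to 1.56% and 14.1%, and Dpf1 a smaller one, 6.24% and 7.55%.

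Of 21 other subunit genes of BAF, PBAF and the non-canonical form in the files, all were tested, 14 were higher, 5 lower and 2 not called, or 90.5% called beside 73.1% of all genes tested (37.2% higher, 35.8% lower). The median log2 fold change was 0.29, and Ss18, Smarce1 and Ss18l1 each lost their call without at least 1 of the libraries. Ss18l1, called lower, also lost its call with upper-quartile factors, library size alone, DESeq2, no filter and the replicate block. The largest rise was in Bcl11a, which had 6 and 4 counts under the WT label and 81 and 101 under the KO label (3.99 ± 0.50, log2, SE, edgeR adjusted p = 1.04e-07). Bcl11b, the related zinc-finger subunit, rose by 1.12 ± 0.22 to 5.99 CPM (edgeR adjusted p = 8.12e-05). Bicra, a subunit of the non-canonical form, rose by 0.82 ± 0.086 from 19.9 to 35.3 CPM, and its paralogue Bicral fell by 0.55 ± 0.047 from 109 to 74.3 CPM (edgeR adjusted p = 4.57e-09 and 1.15e-10). Arid2, the ARID subunit of PBAF, rose by 0.79 ± 0.040 from 98.5 to 169.9 CPM (edgeR adjusted p = 4.83e-15).

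The largest fall was in Smarcd3, the muscle and neuronal form of BAF60, which had 251 and 172 counts under the WT label and 63 and 101 under the KO label (log2 fold change -1.52 ± 0.24, edgeR adjusted p = 3.03e-06). Its paralogues Smarcd1 and Smarcd2 rose by 0.18 ± 0.038 and 0.40 ± 0.050 (edgeR adjusted p = 0.000157 and 9.18e-08). Actb, the actin of the complex and of the cytoskeleton, fell by 0.66 ± 0.022, and Bcl7b fell by 0.41 ± 0.099, a call lost with library size alone (edgeR adjusted p = 0.0768). Smarcb1, a core subunit, was not called (-0.088 ± 0.045, edgeR adjusted p = 0.0810). Dpf3, the other neuronal DPF gene, had 37 and 22 counts against 14 and 17 and was not called either (-1.07 ± 0.57, edgeR adjusted p = 0.0948).

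**Figure D3:**
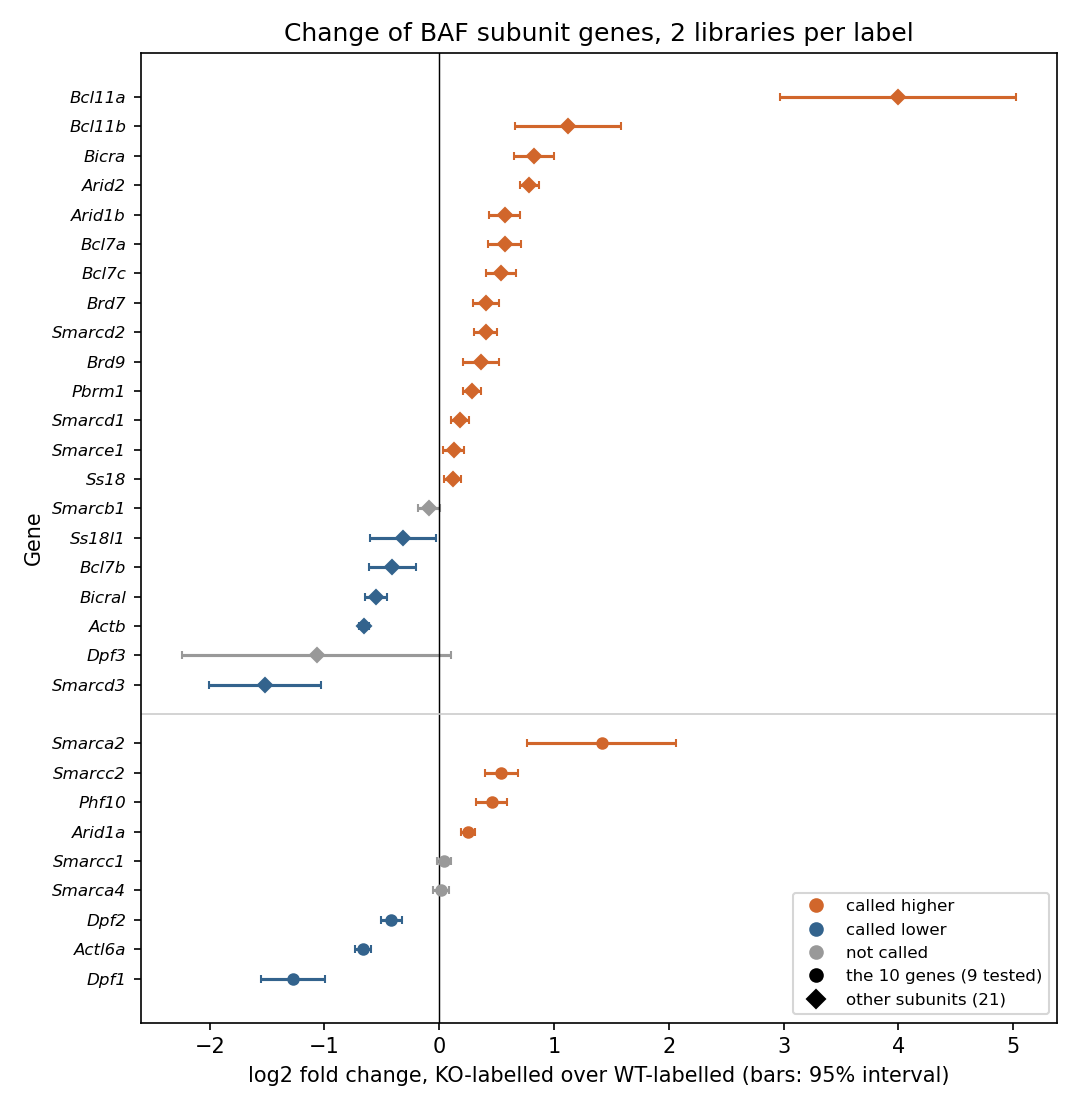
Log2 fold change, KO-labelled over WT-labelled, of the 9 tested genes (circles, below the line) and the 21 other subunits (diamonds, above it), with 95% intervals from the edgeR fit. Orange is called higher, blue lower and grey not called. Bcl11a lies farthest to the right at 3.99, and Smarcd3 and Dpf1 lie farthest to the left among called genes.

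Profiles most like that of Smarca2, the member with the largest change, belonged to 9530077C05Rik, Mbp and Ager. Their centred log2 CPM lay within a root-mean-square distance of 0.024, 0.030 and 0.034 over the 4 libraries. With 2 labels and 2 libraries each, many genes share such a profile.

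Polymerase II loops were read around the same genes. Loops were kept at the authors' false discovery rate of at most 0.01 and at least 2 paired-end tags, which left 22148 loops with 175142 tags in the WT-labelled list and 57463 loops with 285890 tags in the KO-labelled one. Their anchors covered 61.6 Mb and 115 Mb. At least 1 kept loop was listed at 7 of the 10 genes in the WT-labelled list and at 9 in the KO-labelled list, whereas 37.7% and 54.3% of all protein-coding genes had one. Whether the labels of the loop lists and of the RNA-seq libraries refer to the same cells was not checked, so directions are not compared between the assays. With 1 list per label no test could be run, and the intervals given cover counting error only.

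The 10 genes held 43 kept loops with 169 tags in the WT-labelled list and 94 loops with 363 tags in the KO-labelled list. That was 9.65 of every 10000 tags (exact 95% interval 8.25 to 11.2) and 12.7 of every 10000 (11.4 to 14.1), a ratio of 1.32 (1.09 to 1.59). The ratio was 0.993 when an anchor had to overlap the gene itself, and 1.61 at a false discovery rate of at most 0.001. With overlap required, the WT-labelled tags stayed at 169 and the KO-labelled tags fell to 274, mostly through an anchor just past Smarcc2 (72 tags). Over 4714 protein-coding genes with at least 20 tags in the lists together and tags in each, the median ratio per gene was 1.24. The like value for the subunit genes in that set was 1.20. The 1.32 is a ratio of summed tags and includes Smarca2 and Dpf1, which had no kept loop in the WT-labelled list. Of those genes 40.5% had a tag share at least 2-fold higher and 30.8% at least 2-fold lower in the KO-labelled list. Among the 6 subunit genes in that set, Phf10 was higher and Smarcc1 lower by that measure. Of the 20 KO-labelled tags of Phf10, 15 came from an anchor past the gene's end, over neighbouring genes. Its promoter anchor held 2 tags in the WT-labelled list and 5 in the KO-labelled list.

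**Figure D4:**
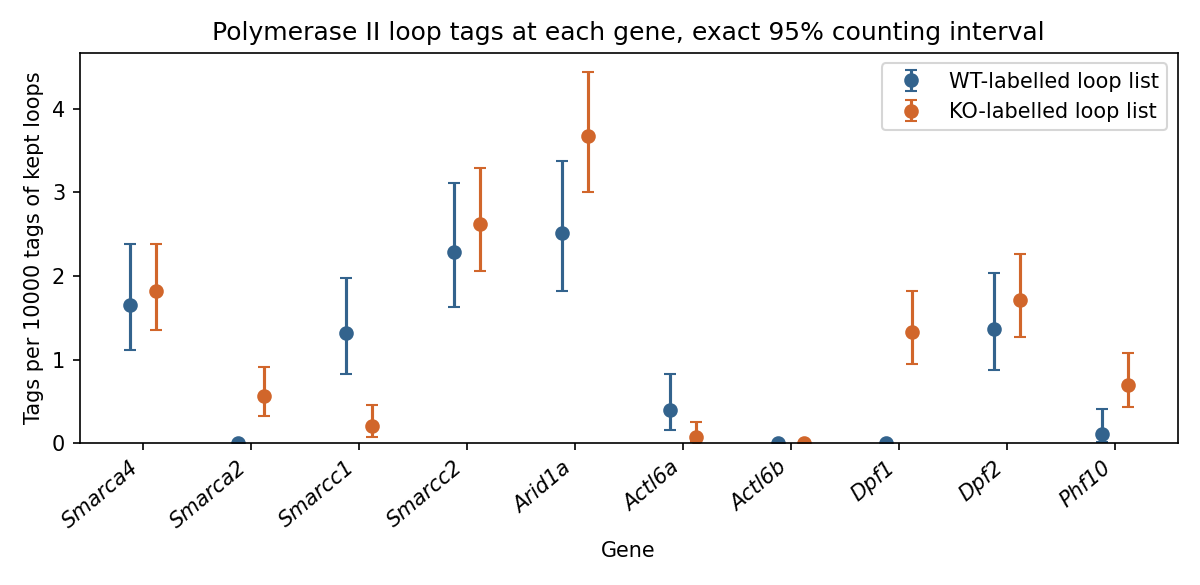
Tags of kept loops at each gene per 10000 tags of kept loops in its list (y axis, from 0), with exact 95% binomial intervals for values above 0. Smarca2 and Dpf1 have tags in the KO-labelled list only, Actl6b in neither, and Smarcc1 falls from 1.31 to 0.210.

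Among the ATPase genes, Smarca4 had 11 kept loops with 29 tags in the WT-labelled list and 15 with 52 tags in the KO-labelled list, a near-equal share (1.66 and 1.82 per 10000). Its promoter anchor was present in both lists. The loop to the Dock6 promoter, about 233 kb and 236 kb long, recurred with 5 and 4 tags. The strongest KO-labelled loop there had 10 tags and spanned 69.4 kb to an anchor with no promoter of a protein-coding gene. Smarca2 had no loop of any kind in the WT-labelled list, which held 143451 loops before filtering, against 489409 in the KO-labelled one. In the KO-labelled list it had 6 kept loops with 16 tags, 3 of them from the promoter anchor (chr19:26602118-26609204). The strongest, 4 tags over 612 kb, reached the promoter of Vldlr, a lipoprotein receptor gene.

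Smarcc1 went from 23 tags in 4 kept loops in the WT-labelled list to 6 tags in 2 in the KO-labelled one, a share ratio of 0.160. The WT-labelled loops all left the promoter anchor, the strongest with 11 tags over 232 kb and the next with 5 tags over 257 kb to Cdc25a, a cell cycle phosphatase gene. No kept loop of Smarcc1 was shared between the lists. The strongest KO-labelled loop had 4 tags over 174 kb to Elp6. Smarcc2 had 40 tags in 13 kept loops and 75 tags in 14. Most lay at its 3' side. In the KO-labelled list 13 loops with 72 tags came from an anchor (chr10:128490752-128496346) that starts 161 bases past the end of Smarcc2 and covers its neighbour Myl6. At the Smarcc2 promoter itself there were only 4 tags in the WT-labelled and 3 in the KO-labelled list. The loop to Cnpy2 recurred with 10 and 7 tags, and the strongest in the KO-labelled list had 17 tags and reached Myl6b over 5.61 kb.

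Arid1a had the most tags of the 10 genes, 44 in 10 kept loops of the WT-labelled list and 105 in 27 of the KO-labelled list (2.51 and 3.67 per 10000). All 10 and 25 of the 27 included the promoter anchor, which was 7692 bases wide in the first list and 9707 in the second. The WT-labelled list's strongest loop had 15 tags over 59.1 kb. In the KO-labelled list 3 loops had 14 tags each, one to the Pigv promoter 81.1 kb away, one within Arid1a over 24.2 kb and one over 111 kb. A loop to the Ahdc1 promoter recurred with 2 and 3 tags.

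Actl6a had few kept tags in either list, 7 in 2 loops and 2 in 1 loop. The strongest WT-labelled loop had 5 tags over 344 kb, and the KO-labelled loop had 2 tags over 482 kb. Neither reached a promoter of a protein-coding gene. The other WT-labelled loop, named after its partner was seen, with 2 tags over 1945 kb, joined its promoter anchor to the anchor at Sox2, a pluripotency and neural progenitor factor gene. It had no counterpart in the KO-labelled list. Actl6b had no listed loop, kept or not, in either list, alongside its 0 or 1 RNA counts. Dpf1 had 13 loops with 15 tags in the WT-labelled list, none of them kept and none at its promoter window. In the KO-labelled list it had 10 kept loops with 38 tags. The promoter window (chr7:29303755-29304054, plus strand) is shown because an anchor covered it in that list only, with the same motifs in capitals.
Dpf1: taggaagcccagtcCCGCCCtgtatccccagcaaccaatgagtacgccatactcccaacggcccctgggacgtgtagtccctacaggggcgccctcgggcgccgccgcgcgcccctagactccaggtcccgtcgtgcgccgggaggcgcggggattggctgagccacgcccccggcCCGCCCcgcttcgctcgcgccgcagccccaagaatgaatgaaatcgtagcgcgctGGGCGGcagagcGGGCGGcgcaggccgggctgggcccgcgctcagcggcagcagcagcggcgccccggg
It held 4 copies of CCGCCC and 0 of CACCC, with 39 CpG dinucleotides, more than in 95.6% of windows. The strongest Dpf1 loop, with 18 tags, joined the promoter anchor (chr7:29301959-29309252) to one at the gene's 3' end (chr7:29312690-29323518), 12.5 kb apart.

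Dpf2 had 24 tags in 2 kept loops of the WT-labelled list and 49 in 11 of the KO-labelled list. A loop from its promoter anchor, about 68.8 kb and 66.3 kb long, recurred with 13 and 15 tags and was the strongest in both lists. Phf10 had 2 tags in 1 kept loop, 1279.8 kb long, and 20 tags in 8. In the KO-labelled list 15 of those tags came from an anchor 279 bases past the gene's end, over 1600012H06Rik and its neighbour Wdr27, and 5 from the promoter anchor. Its loops with most tags there had 3 each, and one joined the promoter anchor to the Dact2 promoter over 762 kb.

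**Figure D5:**
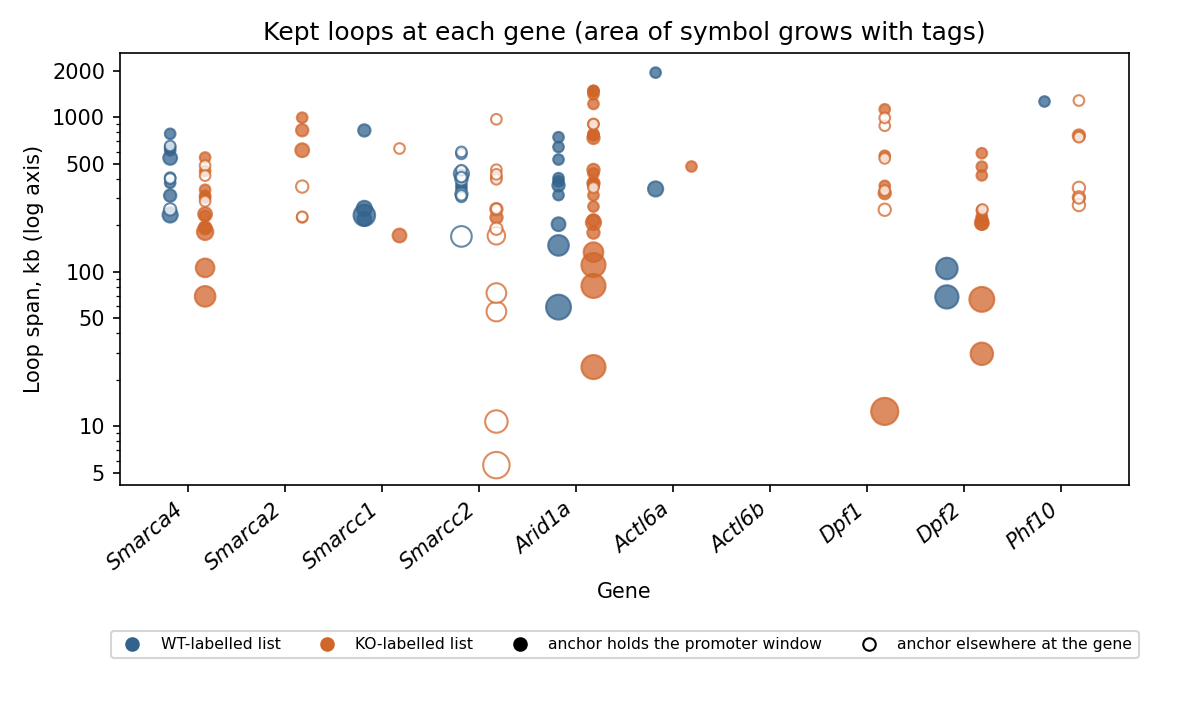
Span of each kept loop (y axis, kb, log scale) at each gene, blue for the WT-labelled and orange for the KO-labelled list. The symbol's area grows with tags, and filled symbols have an anchor over the gene's promoter window. The 3 shortest loops are in the KO-labelled list. Those of 5.61 and 10.7 kb leave the anchor just past Smarcc2, over Myl6, with neither end overlapping Smarcc2. The loop of 12.5 kb is at Dpf1.

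Recurrence of kept loops was counted for these genes alone. The share over all kept loops was not computed, and the lists differ in size (22148 and 57463 kept loops). Smarca4 had 3 WT-labelled kept loops with a kept counterpart, Arid1a 3, Smarcc2 2 and Dpf2 1, while Smarcc1, Actl6a and Phf10 had 0. Counting every listed loop as a counterpart, these rose to 6, 7, 4 and 2.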

How the data were processed

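The authors deposited, for every RNA-seq library, a file of whole-number read counts by gene symbol. The submitters' processing notes name mm10 and, with no role given, the tools featureCounts 2.0.3, HISAT2 2.1.0, DESeq2 1.18.1, MACS2 2.2.7.1, HiC-Pro 2.11.1 and Bowtie2 2.4.4. For strand setting and annotation: not given in the sources used here. For loop caller: not given beyond the word mango in the names of the loop lists. Rows that name no gene (20.4% to 22.5% of each column) were left out. Loop lists, deposited by the authors, give tags (counts) and a false discovery rate (q-value) per loop.

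After filterByExpr and TMM scaling, edgeR 4.0.16 (R 4.3.3) compared the labels (quasi-likelihood, robust, two-sided, Benjamini-Hochberg over all genes tested). In simulated counts of 17273 genes for this comparison, 93.0% of 2-fold and 99.0% of 4-fold changes were recovered. Only 200 genes were changed there, chosen above a minimum mean count, and every gene had the same dispersion. In the data 73.1% of genes were called, so these rates need not hold for the comparison itself. Alternatives were upper-quartile factors, library size alone, DESeq2 1.42.0, no filter, each library left out and a replicate block. Ratios used 0.5 added to counts, and the planned ratio of Actl6a to Actl6b is not given because Actl6b had at most 1 count. Gene spans and promoters came from RefSeq GRCm38.p6, whose table gives no transcript length. Shares and ratios of a pair's counts are therefore not corrected for length and serve only to compare libraries. Loops in different lists were counted as recurring when each anchor of one overlapped an anchor of the other by at least 1 base.

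Members and lists were chosen with earlier results of these data known. Named were all 10 genes, the 4 called genes that rose most and the 4 that fell most among other subunits and other remodellers, 2 and 2 of the REST list, the strongest kept loop of each gene in each list, and the 3 genes nearest in profile to the member with the largest change. Departing from the rule, marker lists are given as sums and counts with few names, and these were added after their values were seen: Smarcd1 and Smarcd2 (paralogues of Smarcd3), the uncalled Smarcb1 and Dpf3, genes whose call was lost under an alternative, Rest, TIP60 genes, and loops that recurred or had a partner gene of interest.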

Additional observations from a re-analysis of the deposited data

How the results depend on the processing

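The 4 higher and 3 lower members kept their direction and call under every alternative run, with 6 higher under upper-quartile factors and library size alone. Smarca4, not called, changed sign without some libraries (log2 fold change -0.018 to 0.046 over the 4 fits that leave one out). With library size alone, 3 other subunits were lower in place of 5, and with upper-quartile factors, DESeq2 or no filter 4 were. The summed tag share of the 10 genes, KO-labelled over WT-labelled, was 1.61 at a false discovery rate of at most 0.001 and 0.993 with anchors overlapping the gene itself. Anchors just past Smarcc2, Phf10 and Dpf2 drop out in the latter, all of them in the KO-labelled list. At the end of Smarcc2 the WT-labelled anchor (34 tags), which also covers Myl6, reaches into the gene and stays. The KO-labelled anchor there (72 tags) drops out. No kept loop had 1 tag, so removing the tag minimum changed nothing. With the replicate block 4 members were higher and 3 lower, and of the other subunits 14 and 4. Replicate numbers are not stated to pair libraries, and deviations of same-numbered libraries correlated at 0.015 across genes. The loop lists have no replicates, and low counts limit precision for Smarca2 (SE 0.32) and the genes with fewer reads.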

Other observations

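Other ATP-dependent remodellers moved in either direction. Of 21 genes listed for the CHD, ISWI, INO80 and TIP60 families and related enzymes, 10 were higher, 9 lower and 2 not called in the KO-labelled libraries, beside 73.1% called over all genes tested. Chd9 and Chd7 rose by 1.92 ± 0.045 and 1.90 ± 0.069 (log2, SE), from 47.3 to 179.8 and from 20.5 to 76.5 CPM. Smarca1, the ISWI ATPase SNF2L of differentiating neural cells, rose by 1.89 ± 0.11 from 7.38 to 27.3 CPM, while its paralogue Smarca5 (SNF2H) fell by 0.43 ± 0.032 from 322 to 239.7 CPM. Chd5, a CHD gene of neurons, rose by 1.63 ± 0.14. Ruvbl1 and Ruvbl2, helicases of INO80 and TIP60, fell by 1.07 ± 0.037 and 0.94 ± 0.031, and Hells fell by 0.80 ± 0.029. The genes named so far had edgeR adjusted p-values of at most 1.32e-10. Other TIP60 genes of the list, Kat5, Ep400 and Trrap, rose by 0.57, 0.41 and 0.31 (log2, edgeR adjusted p = 1.34e-07, 6.83e-11 and 6.60e-09), so its members went both ways. They were chosen after their values were seen. With library size alone, 13 of the 21 were higher and 5 lower.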
